A study of Sus scrofa with 12 samples.

Results

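The genes described here make, sense and move cholesterol in the endometrium of sows. They were chosen by name, from a list of 32 symbols for enzymes of cholesterol synthesis, regulators of those enzymes, and proteins of cholesterol transport, storage and efflux. Of the 20674 genes in the deposited expression table, 30 carried a listed name. CYP51A1 is listed there under its synonym CYP51, and IDI1 was not analysed here. The 30 genes comprise 17 enzymes, 5 genes of sensing and transcription and 8 genes of transport, and all 30 passed the filter on low counts.

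Cells build cholesterol from acetyl-CoA through mevalonate, farnesyl diphosphate, squalene and lanosterol. The sterol content of the endoplasmic reticulum controls this route. When it is low, SCAP carries the SREBP transcription factors, encoded by SREBF1 and SREBF2, to the Golgi, where they are cleaved and then switch on the enzymes, and when it is high, INSIG proteins hold SCAP back. Cells that hold more sterol than they need export it through ABCA1 and ABCG1 to apolipoproteins such as APOE, which is a response driven by the LXR receptors and prominent in macrophages. In the gravid uterus cholesterol serves growing membranes and is the precursor of steroid hormones.

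Endometrium was taken from Landrace × Yorkshire sows after 114 days of gestation feeding. The basal control group, L − N, received a low-fiber diet (3.73% crude fiber) without N-carbamylglutamate (NCG), and L + N received the same diet with 0.05% NCG. H − N received a high-fiber diet (7.46% crude fiber), in which soybean bran and beet pulp replaced part of the corn, without NCG, and H + N received that diet with 0.05% NCG. NCG is an analog of N-acetylglutamate, the activator of the first enzyme of the urea cycle, and is fed to raise arginine synthesis. Each group had 3 RNA-seq libraries, 12 in all. The labels do not say that the libraries come from separate sows, so the p-values measure the spread between libraries.

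Total counts ran from 14369781 to 19309724 per library. Defining markers of endometrium were present: ESR1, an estrogen receptor, stood at 410 to 1281 CPM (counts scaled to the size of the library) and EPCAM, of epithelium, at 187 to 374 CPM over the 12 libraries. Some features of single libraries and of the L − N group touch the results. The summed level of 12 macrophage markers was 3628 and 3747 CPM in L − N replicates 2 and 3, against 753 to 1730 CPM in the other 10 libraries. Summed smooth muscle markers stood at 5052, 1594.5 and 1975 CPM in L − N, against 789 to 1538 CPM in the other groups. The stromal marker VIM and the endothelial markers PECAM1 and CDH5 were also higher in every L − N library than in any library of the other groups. The endothelial markers VWF, KDR and TEK were not. ESR1 and the summed markers of dividing cells were lower in every L − N library than in any library of the other groups. The summed stromal markers were highest in H − N replicate 3 and H + N replicate 3, at 50566 and 48032 CPM, against 22274 to 38669 CPM elsewhere. That sum was mostly collagen, with COL1A1 at 14849 and COL3A1 at 30248 CPM in H − N replicate 3. The stromal markers DCN, LUM, PDGFRA and VIM were highest in neither library, and VIM was lowest in H − N replicate 3, at 862 CPM. Neutrophil markers were highest in H − N replicate 3, at 145 CPM. The summed epithelial markers were highest in H − N replicates 3 and 1, at 2257 and 1814 CPM, against 995 to 1511 CPM elsewhere, and 6 of the 7 had higher estimates in H − N than in L − N (median log2 fold change 0.40, 1 called).

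Compared per transcript length, as FPKM (counts divided by gene length and library size, as deposited), APOE and NPC2 were the most abundant of these genes in L − N, with means of 908 and 446 FPKM. ABCA1 and SCARB1 followed at 51.6 and 48.9 FPKM. Among the enzymes in L − N, FDFT1 (22.3 FPKM), MSMO1 (21.7 FPKM) and FDPS (18.0 FPKM) were the most abundant, while SQLE stood at 2.68 FPKM, STARD4 at 0.679 FPKM and MVK at 0.649 FPKM. In H − N the mean of FDPS was 70.9 FPKM, above every other enzyme. The lowest raw count of any of these genes in any library was 39 reads, for STARD4.

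The enzymes were high or low together by library. H − N replicate 3 had the highest CPM of all 12 libraries for 13 of the 17 enzymes, H − N replicate 1 for FDPS and FDFT1, H + N replicate 3 for PMVK and L − N replicate 2 for TM7SF2. The median deviation of the 17 enzymes from their mean over the libraries, on the log2 CPM scale, was 1.01 in H − N replicate 3, 0.50 in H + N replicate 3 and 0.49 in H − N replicate 1. In the other 9 libraries it lay between −0.42 and 0.03, and H − N replicate 2 (−0.18) and H + N replicates 1 (−0.38) and 2 (−0.22) lay within the range of the low-fiber libraries. Among the 3 libraries with high enzymes, the summed epithelial markers were highest in both H − N libraries. The collagens COL1A1 and COL3A1, but not the other stromal markers, were highest in both replicates numbered 3. The part of these markers in the enzyme levels was not tested. The transport genes had another order of libraries. Their median deviation was 0.80 and 0.74 in L − N replicates 2 and 3, against −0.36 to 0.09 elsewhere, and 7 of the 8 were highest in one of those libraries, all but STARD4. How often each library was the highest over all genes was not counted, for the enzymes or for the transport genes.

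**Figure D1:**
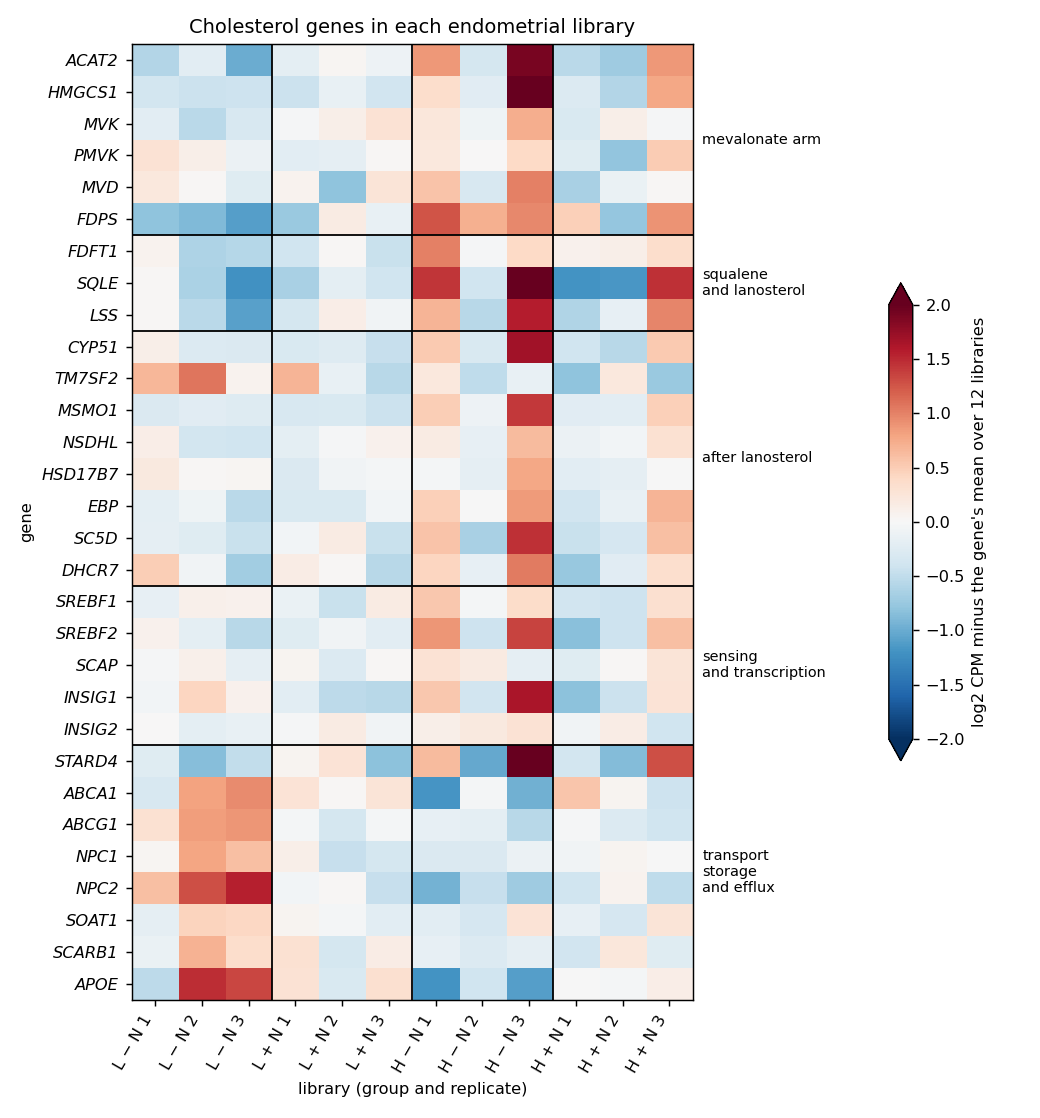
Each row is a gene and each column a library; color gives log2 CPM minus the gene's mean over the 12 libraries, with values beyond 2 drawn in the end color. The enzymes are highest in H − N replicates 1 and 3 and in H + N replicate 3, while transport genes other than STARD4 are highest in L − N replicates 2 and 3.

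To ask how fiber related to these genes, both high-fiber groups (HF) were compared with both low-fiber groups (LF), as a difference of averaged group means, with the quasi-likelihood test of edgeR and p-values adjusted over all genes by Benjamini-Hochberg. On HF 16 of the 17 enzymes had higher estimates than on LF, with a median log2 fold change of 0.56, and 7 of the 8 transport genes had lower estimates, with a median of −0.45. Over all 15351 genes tested the median was 0.02 and 53.7% were higher. None of the 30 genes passed an adjusted p of 0.05 by edgeR, where 0.0521% of all genes did and 0.0261% also passed a 2-fold difference, while DESeq2 called 6: FDPS, FDFT1 and MSMO1 higher, and ABCG1, NPC2 and APOE lower, where it called 7.32% of all genes. At an unadjusted p under 0.05, 8 enzymes were higher, against 9.3% of all genes, and 5 transport genes and the enzyme TM7SF2 were lower, against 10.2% of all genes. Both counts depended on single libraries. The count of lower transport genes, 5 with all libraries, ran from 3 to 6 over the fits without 1 library. The enzyme count was 3 in place of 8 when H − N replicate 3 was dropped, and also 3 when H + N replicate 3 was dropped. With both left out, an alternative chosen after seeing the data, the median of the enzymes was 0.11 and 12 of 17 were higher. Without L − N replicate 1, edgeR called 5 of the 30 genes, namely FDPS and FDFT1 higher and ABCG1, NPC2 and APOE lower, but calls over all genes also went up, to 6.99%. Without H + N replicate 2 it called 2, FDPS and NPC2, and 0.735% of all genes.

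The mevalonate arm begins with ACAT2, a cytosolic thiolase, and HMGCS1, which makes hydroxymethylglutaryl-CoA, and ends with FDPS, the synthase of farnesyl diphosphate. In L − N HMGCS1 (gene identifier 100524223, Sscrofa11.1 chromosome 16, 27936225 to 27957261) had levels of 61.4, 58.8 and 59.4 CPM, and in L + N of 59.3, 71.4 and 61.1 CPM. It stood at 101, 68.2 and 351 CPM in H − N and at 65.8, 52.7 and 136 CPM in H + N. The 6 low-fiber libraries lay close together, and 3 of the 6 high-fiber libraries lay above all of them, while H − N replicate 3 stood at 5.71 times the median of the other 11 libraries. The log2 fold change of HMGCS1 for HF against LF was 0.97 (standard error, SE, 0.365, adjusted p = 0.180 by edgeR), and 0.45 without H − N replicate 3.

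FDPS (gene identifier 100153932, chromosome 4, 94500140 to 94514820) was high in every H − N library. Its levels were 31.7, 30.2 and 25.9 CPM in L − N, 33.4, 62.4 and 50.4 CPM in L + N, 133, 91.0 and 109 CPM in H − N, and 77.8, 32.5 and 104 CPM in H + N. All H − N libraries lay above all L − N and L + N libraries, and among the H + N libraries only replicate 2 lay with the low-fiber ones. Between H − N and L − N, FDPS was 3.79-fold higher, with a log2 fold change of 1.92 (SE 0.362, adjusted p = 0.0230 by edgeR), and it was the only enzyme that edgeR called in that comparison, where 5.27% of all genes were called. Its estimate stayed between 1.77 and 2.05 over the fits without 1 library, but the call was lost when H − N replicate 1, or replicate 2 or 3 of L − N, was dropped (highest adjusted p 0.101, by edgeR), and also in a fit to the 6 libraries alone. The fits that lost the call called 0% to 1% of all genes. For HF against LF the log2 fold change of FDPS was 1.24 (SE 0.251, adjusted p = 0.0678 by edgeR). Mammalian genomes hold processed copies of FDPS, so reads could be shared with them and its level is uncertain to that extent.

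Of the other genes of this arm, ACAT2 had a log2 fold change of 0.90 for HF against LF (unadjusted p = 0.0334 by edgeR) and overlaps TCP1 on the opposite strand over 94 bp, while PMVK overlaps KCNN3 on the same strand over 113 bp. The kinases MVK (0.25) and PMVK (0.08) and the decarboxylase MVD (0.19) had small estimates, with unadjusted p-values by edgeR of 0.191, 0.711 and 0.462.

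**Figure D2:**
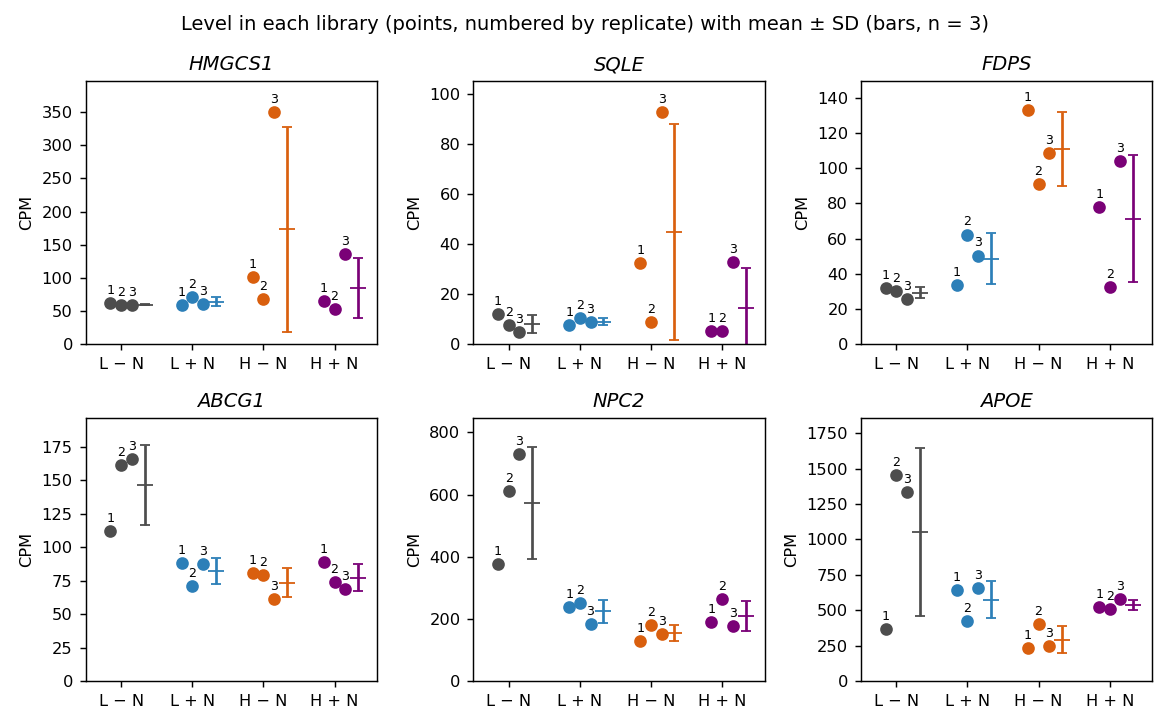
CPM of 6 genes in each library (points, numbered by replicate), with the group mean ± SD (n = 3) to the right; the lower SD bar of SQLE in H + N reaches below 0 and is cut there. HMGCS1 and SQLE are highest in H − N replicate 3, FDPS is high in all H − N libraries, and ABCG1 and NPC2 are highest in the 3 L − N libraries.

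Squalene is made by FDFT1, oxidized by SQLE, a rate-limiting step of the pathway, and closed to lanosterol by LSS. SQLE (gene identifier 100113409, chromosome 4, 14669789 to 14700152) varied most of all 30 genes, 18.4-fold from the lowest to the highest library. It stood at 12.1, 7.59 and 5.04 CPM in L − N, 7.52, 10.3 and 8.96 CPM in L + N, 32.3, 9.02 and 92.6 CPM in H − N, and 5.14, 5.21 and 32.8 CPM in H + N. The same 3 high-fiber libraries were high as for HMGCS1, and the other 3 lay within the low-fiber range. The log2 fold change of SQLE for HF against LF was 1.56 (SE 0.588, adjusted p = 0.180 by edgeR), and 0.83 without H + N replicate 3. LSS had the same profile, with 32.6, 22.1 and 15.1 CPM in L − N, 25.2, 35.3 and 30.6 CPM in L + N, 51.9, 22.0 and 95.7 CPM in H − N, and 21.2, 28.8 and 63.5 CPM in H + N. Its log2 fold change was 0.80 (adjusted p = 0.253 by edgeR), and its gene lies on an unplaced scaffold of the assembly. FDFT1 was more even over the high-fiber libraries, which ran from 89.4 to 183 CPM, beside 59.1 to 95.7 CPM in the low-fiber ones, and had a log2 fold change of 0.65 (SE 0.183, adjusted p = 0.110 by edgeR).

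After lanosterol, CYP51 removes a methyl group, MSMO1, NSDHL and HSD17B7 take part in removing the remaining methyl groups, EBP shifts a double bond, SC5D introduces one, and TM7SF2 and DHCR7 reduce them. MSMO1 (gene identifier 396590, chromosome 8, 43726834 to 43745784) was very even on the low-fiber diet, with 43.1, 45.0 and 43.8 CPM in L − N and 42.3, 42.4 and 39.1 CPM in L + N. It stood at 74.1, 49.0 and 141 CPM in H − N and at 44.9, 45.2 and 73.3 CPM in H + N. Its log2 fold change for HF against LF was 0.70 (SE 0.223, adjusted p = 0.134 by edgeR). CYP51 stood at 40.0, 30.5 and 30.2 CPM in L − N, 29.7, 31.0 and 26.8 CPM in L + N, 53.1, 29.8 and 118 CPM in H − N, and 27.8, 24.9 and 53.2 CPM in H + N. Both genes were high in the same 3 libraries as SQLE, and the estimate of CYP51 was 0.64 (adjusted p = 0.270 by edgeR) and 0.29 without H − N replicate 3. EBP (0.54, unadjusted p = 0.0205 by edgeR) was the other gene of this stretch with an unadjusted p under 0.05 and a higher estimate. NSDHL, SC5D, DHCR7 and HSD17B7 had estimates of 0.27, 0.56, 0.24 and 0.08. TM7SF2, a sterol reductase, was the enzyme with a lower estimate, a log2 fold change of −0.62 (unadjusted p = 0.0467 by edgeR), and was highest in L − N replicate 2, at 23.5 CPM.

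The genes that sense sterol and control transcription had small estimates for HF against LF, from 0.10 to 0.53, and 0 of 5 reached an unadjusted p under 0.05 by edgeR (19.5% of all genes did), and 0 of 5 were called by DESeq2. SREBF2, whose product chiefly drives the cholesterol enzymes, stood at 69.5, 57.2 and 44.2 CPM in L − N, 55.4, 61.9 and 56.6 CPM in L + N, 120, 48.8 and 167 CPM in H − N, and 36.5, 48.9 and 98.7 CPM in H + N. INSIG1, which is itself a target of the SREBP factors, stood at 35.2, 48.9 and 38.6 CPM in L − N, 31.3, 25.4 and 24.9 CPM in L + N, 53.0, 27.9 and 113 CPM in H − N, and 20.5, 27.0 and 44.1 CPM in H + N. Both genes peaked in H − N replicate 3, the library with the highest enzyme levels, where INSIG1 was 3.60 times and SREBF2 2.96 times the median of the other 11 libraries. Their log2 fold changes were 0.53 (adjusted p = 0.351 by edgeR) for SREBF2 and 0.41 (adjusted p = 0.471 by edgeR) for INSIG1, the latter 0.08 without H − N replicate 3. SREBF1, SCAP and INSIG2 were flatter, and in H − N replicate 3 they stood at 1.33, 0.869 and 1.25 times the median of the other libraries. INSIG2, a paralog of INSIG1, varied 1.62-fold over the 12 libraries and INSIG1 5.50-fold.

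Among the transport genes STARD4, a soluble sterol carrier and a target of SREBP, followed the enzymes. It stood at 4.71, 3.07 and 3.96 CPM in L − N, 5.87, 6.81 and 3.14 CPM in L + N, 8.76, 2.70 and 30.1 CPM in H − N, and 4.35, 3.04 and 14.0 CPM in H + N. Again H − N replicates 1 and 3 and H + N replicate 3 were the highest. Its log2 fold change for HF against LF was 1.12 (SE 0.538, adjusted p = 0.278 by edgeR), and 0.49 without H − N replicate 3.

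The other 7 transport genes had lower estimates on the high-fiber diet. NPC2 (gene identifier 397410, chromosome 7, 97730532 to 97740087), which hands cholesterol to NPC1 inside the lysosome, stood at 376, 612 and 731 CPM in L − N. It stood at 239, 252 and 182 CPM in L + N, 129, 181 and 152 CPM in H − N, and 189, 263 and 175 CPM in H + N. All 3 L − N libraries lay above all 9 others. The share of all genes with this split was not counted, and the cell markers VIM, PECAM1 and CDH5 split likewise. NPC2 fell in each other group against L − N, with a log2 fold change of −1.90 in H − N (SE 0.254, adjusted p = 0.0162 by edgeR), −1.35 in L + N (SE 0.250, adjusted p = 0.0115 by edgeR) and −1.45 in H + N (SE 0.251, adjusted p = 0.0158 by edgeR). These comparisons share the L − N libraries. Without L − N replicate 3 the adjusted p by edgeR was 0.0603, 0.0549 and 0.0762, so no call was kept. Calls over all genes also fell in that fit, to 0.0385%, 1.33% and 0.0257%, from 5.27%, 9.6% and 7.97%. The call in H − N was also lost without H − N replicate 1 (adjusted p = 0.0552 by edgeR) and that in H + N without H + N replicate 1 (adjusted p = 0.0593 by edgeR). Those fits called 0% and 0.00642% of all genes.

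ABCG1 (gene identifier 100620416, chromosome 13, 205561897 to 205628428), a sterol exporter, had the same order of groups. It stood at 112, 162 and 166 CPM in L − N, 88.1, 70.9 and 87.8 CPM in L + N, 80.6, 78.9 and 61.3 CPM in H − N, and 88.7, 74.3 and 68.7 CPM in H + N, and again all L − N libraries lay above all others. Its log2 fold change against L − N was −0.99 in H − N (adjusted p = 0.0194 by edgeR), −0.83 in L + N (adjusted p = 0.0180 by edgeR) and −0.92 in H + N (adjusted p = 0.0194 by edgeR). None of the 3 calls was kept without L − N replicate 3 (adjusted p 0.0949, 0.0797 and 0.0881 by edgeR). The call in H − N was also lost when replicate 1 or 3 of H − N, or replicate 2 of L − N, was dropped, that in L + N without L − N replicate 2 or L + N replicate 2, and that in H + N without H + N replicate 1 or 3 (adjusted p from 0.0514 to 0.0837 by edgeR). These fits called 0% to 1.47% of all genes for H − N, 1.59% to 5.56% for L + N and 0.00642% to 2.11% for H + N. APOE, a lipid carrier protein (identifier 397576, chromosome 6, 51373113 to 51375333), was measured at 367, 1458 and 1332 CPM in L − N, 641, 426 and 658 CPM in L + N, 229, 399.5 and 246 CPM in H − N, and 524, 510 and 579 CPM in H + N. Here L − N replicate 1 lay among the other groups. APOE fell in H − N against L − N, by 1.85 on the log2 scale (SE 0.423, adjusted p = 0.0349 by edgeR), and the call was lost without L − N replicate 2 or 3, any 1 of the H − N libraries, or H + N replicate 1 (highest adjusted p 0.134 by edgeR). The fits that lost the call of APOE called 0% to 3.18% of all genes. With the replicate number as a block the adjusted p of APOE by edgeR was 0.0597, and 2.48% of all genes were called.

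NPC1, the lysosomal membrane partner of NPC2, stood at 43.2, 72.4 and 63.2 CPM in L − N, 45.3, 30.3 and 32.7 CPM in L + N, 34.4, 34.3 and 38.3 CPM in H − N, and 39.7, 43.2 and 41.6 CPM in H + N. It fell in L + N against L − N, by 0.72 on the log2 scale (SE 0.193, adjusted p = 0.0400 by edgeR), and its adjusted p was 0.0769 with the replicate number as a block. That call was lost without L − N replicate 2 or 3, L + N replicate 2 or 3, H − N replicate 2 or H + N replicate 1 (highest adjusted p 0.139 by edgeR). Those fits called 1.33% to 7.76% of all genes and the fit with the block 7.15%, in place of 9.6%. For H − N against L − N its log2 fold change was −0.74, with an adjusted p of 0.0502 by edgeR, 0.0432 by edgeR with RLE scaling and 0.00545 by DESeq2. NPC1 overlaps a gene on the opposite strand over 50 bp. ABCA1, which loads sterol onto apolipoproteins, stood at 302, 661 and 728 CPM in L − N, 457, 388 and 453 CPM in L + N, 167, 370 and 196 CPM in H − N, and 558, 395 and 285 CPM in H + N. Its log2 fold change for H − N against L − N was −1.21 (adjusted p = 0.0810 by edgeR and 0.0128 by DESeq2). In the same comparison SCARB1, the receptor for high-density lipoprotein, had −0.54 and SOAT1, which esterifies cholesterol for storage, had −0.32 (edgeR's adjusted p = 0.172 and 0.393).

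Macrophage markers moved with these genes. All 12 markers had lower estimates in H − N than in L − N, with a median log2 fold change of −1.58, and 7 were called lower. None of the 12 was at 0 in any library, and their sum was 753 to 1093 CPM in H − N. In bulk tissue fewer cells of a type and less RNA per cell cannot be told apart. In L − N replicate 1 the macrophage sum was 1440 CPM, within the 753 to 1730 CPM of the other 3 groups, and there NPC2 (376 CPM) and ABCG1 (112 CPM) still lay above all 9 libraries of those groups, while APOE (367 CPM), ABCA1 (302 CPM) and NPC1 (43.2 CPM) did not. Of the 12 macrophage markers, CD14 alone lay above those 9 libraries in L − N replicate 1, at 22.7 CPM against at most 17.2 CPM. Markers of other cells split as NPC2 and ABCG1 did. The smooth muscle sum, VIM, PECAM1 and CDH5 lay above those 9 libraries in every L − N library. In L − N replicate 1 they stood at 5052, 3725, 462 and 212 CPM. The summed markers of dividing cells split the other way, at 52.9 to 154 CPM in L − N against 166 to 399 CPM in the other groups. The part of macrophages or of these other cells in the group differences was not tested.

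**Figure D3:**
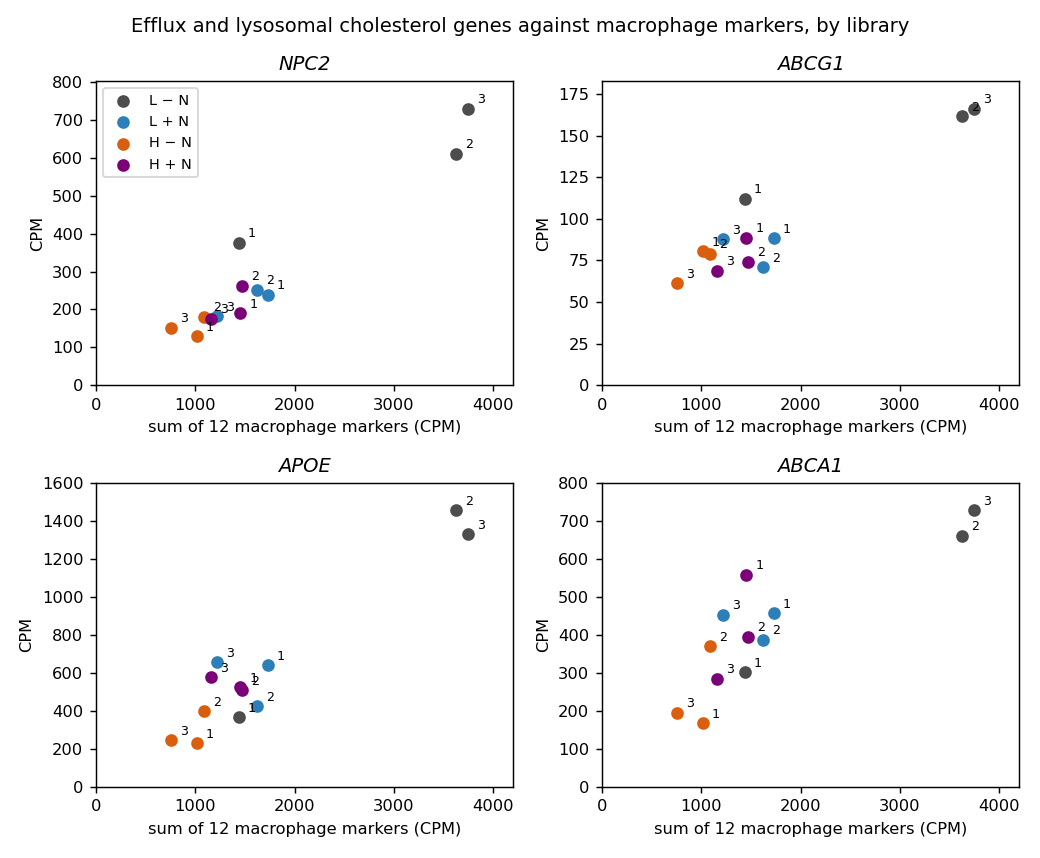
CPM of 4 transport genes (vertical axis) against the sum of 12 macrophage markers in CPM (horizontal axis), 1 point per library, colored by group and numbered by replicate. L − N replicates 2 and 3 lie at the upper right in each panel, and L − N replicate 1 lies above the other groups for NPC2 and ABCG1 but among them for APOE and ABCA1.

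The fiber comparison was then taken apart by NCG. Without NCG (H − N against L − N), 1 enzyme was called higher and 3 transport genes lower, and 3 of these 4, all but ABCG1, also passed a 2-fold difference (2.91% of all genes). At an unadjusted p under 0.05 by edgeR 18 of the 30 genes differed (24.4% of all genes). Among them 10 enzymes were higher (11.3% of all genes were) and 6 transport genes lower (13.1% of all genes were). The medians were 0.86 for the enzymes and −0.87 for the transport genes, against 0.03 for all genes. Without H − N replicate 3 the 10 enzymes became 2 and their median 0.44, whereas the 6 transport genes stayed 6. In 5 of the 17 enzymes and 4 of the 8 transport genes the H − N and L − N libraries did not overlap, where the share among all genes was 12.8% for higher and 12.7% for lower. DESeq2 called 10 of the 30 genes, where it called 13.6% of all genes. These were ACAT2, HMGCS1, FDPS, FDFT1 and MSMO1 higher, and ABCA1, ABCG1, NPC1, NPC2 and APOE lower.

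With NCG (H + N against L + N), 0 of the 30 genes were called by edgeR or DESeq2, where edgeR called 0% of all genes and DESeq2 0.013%. At an unadjusted p under 0.05 by edgeR there were also 0 of the 30, against 4.68% of all genes. The enzymes had a median of 0.14 and the transport genes of −0.08. The 95% interval of the log2 fold change with NCG was −0.22 to 1.32 for FDPS. Without NCG its estimate was 1.92, with an overlapping interval of 1.13 to 2.72. For SQLE the interval with NCG was −1.11 to 2.49, beside 2.43 (0.57 to 4.30) without NCG. For NPC2 it was −0.64 to 0.44, beside −1.90 (−2.45 to −1.34) without NCG. Differences in enzymes such as SQLE thus could not be resolved with 3 libraries a group. The median of the enzymes turned to −0.22 without H + N replicate 3, and 3 of 17 were then higher.

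**Figure D4:**
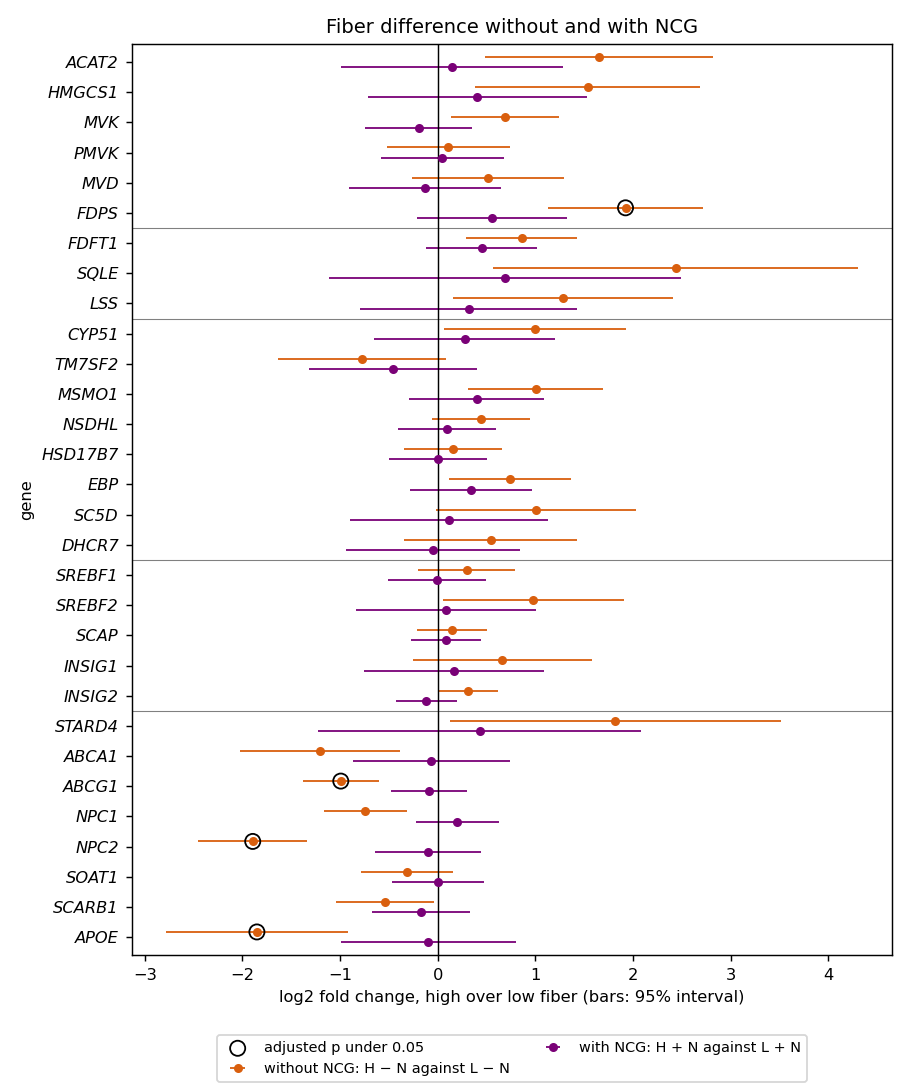
Log2 fold change of high over low fiber for each gene, without NCG (orange) and with NCG (purple), with 95% intervals from the edgeR fit; circled points have an adjusted p under 0.05. FDPS, ABCG1, NPC2 and APOE are circled without NCG and no gene is with NCG.

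Whether the fiber difference itself depended on NCG was tested as an interaction, which takes the NCG difference under high fiber and subtracts the one under low fiber. By edgeR 0 of the 30 genes were called, as were 0 of all genes tested, 6 had an unadjusted p under 0.05 (12.8% of all genes), and DESeq2 called NPC2 and ABCG1, with 1.97% of all genes. The 6 were MVK and FDPS with negative estimates, of −0.89 and −1.37 (5.33% of all genes), and ABCG1, NPC1, NPC2 and APOE with positive ones (7.48% of all genes). NPC2 had the lowest p, with an interaction of 1.79 (standard error 0.351, edgeR's unadjusted p = 0.000310, adjusted p = 0.209). Without L − N replicate 1 edgeR called NPC2, ABCG1, NPC1 and APOE, and 2.81% of all genes.

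For NCG over both diets, 0 of the 30 genes were called by edgeR, where 7.27% of all genes were (1.8% with a 2-fold difference), and DESeq2 called INSIG1 and ABCG1, where it called 13.2% of all genes. By edgeR 3 genes had an unadjusted p under 0.05, against 23.6% of all genes, and all 3 had lower estimates with NCG (10.4% of all genes): INSIG1 (−0.83, adjusted p = 0.118), ABCG1 (−0.38, adjusted p = 0.0915) and NPC2 (−0.46, adjusted p = 0.141). In all, 26 of the 30 genes had lower estimates with NCG, with a median of −0.26, against −0.03 for all genes, and the median of the enzymes ran from −0.46 to −0.12 over fits without 1 library. Within the low-fiber diet (L + N against L − N) the enzymes had a median of 0.07, with 0 called by edgeR or DESeq2 and 0 at an unadjusted p under 0.05 by edgeR, and NPC2, ABCG1 and NPC1 were called lower, where 9.6% of all genes were called. The same 3 genes had an unadjusted p under 0.05 by edgeR (27.8% of all genes, 13.7% lower), and NPC2 alone passed a 2-fold difference (3.99% of all genes). DESeq2 called 17.6% of all genes in that comparison. Within the high-fiber diet (H + N against H − N) all 17 enzymes had lower estimates, with a median of −0.64 that became −0.19 without H − N replicate 3. Of the 30 genes 0 were called there by edgeR or DESeq2, where edgeR called 0% of all genes and DESeq2 0.306%. INSIG1 (−1.08) and MSMO1 (−0.69) had an unadjusted p under 0.05 by edgeR there, against 8.67% of all genes and 3.32% lower.

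H + N was compared with L − N as the combined treatment against the control. NPC2 and ABCG1 were called lower, as given above, and FDPS higher, with a log2 fold change of 1.29 (SE 0.357, adjusted p = 0.0500 by edgeR). Of all genes, 7.97% were called in this comparison and 3.58% also passed a 2-fold difference, as NPC2 and FDPS did. An unadjusted p under 0.05 by edgeR was found for 6 of the 30 genes (27.5% of all genes). The call of FDPS lay at the threshold. Of the fits without 1 library it was kept in that without H + N replicate 2, and it was lost in the 11 others, with another scaling of the libraries (adjusted p = 0.0523 by edgeR), without the filter on low counts, and with the replicate number as a block (adjusted p = 0.0857 by edgeR), while DESeq2 called it. The enzymes as a whole had a median of 0.31, which was −0.07 without H + N replicate 3.

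A list of 32 other genes of sterol handling was compared in the same fit, and 27 of them were tested. For HF against LF, 0 were called by edgeR (0.0521% of all genes) and 2, STARD3 and CYP27A1, by DESeq2 (7.32% of all genes). At an unadjusted p under 0.05 by edgeR 2 were higher (9.3% of all genes) and 5 lower (10.2% of all genes), and the median was −0.03. The 6 with the lowest p were STARD3, a late endosomal sterol carrier (−0.38), CYP27A1, a sterol hydroxylase (−0.59), PLTP, the phospholipid transfer protein (−0.86), OSBP, an oxysterol binding protein (0.17), MBTPS1, the protease that cleaves SREBP (0.21), and MYLIP, an LXR target that degrades lipoprotein receptors (−0.48), with unadjusted p-values by edgeR from 0.00822 to 0.0404. PLTP stood at 90.8, 304 and 360.3 CPM in L − N and at 63.1, 116 and 43.4 CPM in H − N, and fell in H − N against L − N, by 1.77 on the log2 scale (adjusted p = 0.0473 by edgeR). It was the only one of the 27 called in that comparison, where 5.27% of all genes were called. Of the 27 genes, NR1H3, which encodes an LXR receptor, was called in L + N and in H + N against L − N, with log2 fold changes of −0.79 and −0.75 (edgeR's adjusted p = 0.0274 and 0.0389), and was named after its values were seen. Of all genes 9.6% and 7.97% were called in these comparisons.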

How the data were processed

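Per the labels, poly(A) RNA of endometrium was sequenced in paired-end mode. The submitters' processing notes name fastp 0.22.0, HISAT2 2.1.0, HTSeq 0.9.1 and the build Sscrofa11.1, while the strand setting of the counting is not given in the sources used here. The authors deposited raw read counts per gene and FPKM values made from them. The counts were used for every test, and the deposited FPKM values for comparing levels between genes. Groups were read from the sample titles.

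In R 4.3.3, filterByExpr kept 15351 genes, counts were scaled by TMM, and edgeR 4.0.16 was fitted by quasi-likelihood to all 12 libraries, each group having its own mean (8 residual degrees of freedom, biological coefficient of variation 0.269). The 8 comparisons were contrasts with Benjamini-Hochberg adjustment over all genes tested, called at an adjusted p under 0.05. Values in CPM use the TMM factors, and log2 CPM a prior count of 2. Alternatives were DESeq2 1.42.0, RLE scaling, no filter, the replicate number as a block, fits of 2 groups, and leaving out each library. Precision is limited by the spread between libraries, since the chi-square per gene between replicates was 23.7 to 103 (1 from counting error alone). The labels tie the replicate numbers to no shared animal, litter or day, and deviations of same-numbered libraries correlated from −0.322 to 0.283, so the numbers were not used as pairs. Among the 30 genes, values in each library are given for those called by edgeR in any comparison and for the 2 genes of each role with the largest difference between HF and LF, with ABCA1 added after its values were seen. Of the other sterol genes the 6 with the lowest p are named, with NR1H3 added after its values were seen. The members and lists were chosen with earlier results of these data known.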

Additional observations from a re-analysis of the deposited data

How the results depend on the processing

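The calls among the 30 genes depended on the tool and on single libraries. By DESeq2 the number called was 6 for HF against LF, 2 for NCG, 2 for the interaction and 10 for H − N against L − N, where edgeR gave 0, 0, 0 and 4. Over all genes DESeq2 called 7.32%, 13.2%, 1.97% and 13.6%, against 0.0521%, 7.27%, 0% and 5.27% by edgeR. In fits to the 2 groups of a comparison alone the number called of the 30 was 0 for either high-fiber group against L − N, with fewer libraries to estimate the spread. Of all genes 0.0203% were then called for H − N and 0.747% for H + N. Without H − N replicate 3 and H + N replicate 3, chosen after seeing the data, the number was 2 for H − N against L − N, with 1.69% of all genes. In that fit INSIG1 for HF against LF turned to −0.10. With 1 library dropped at a time, the number ran from 0 to 5 for HF against LF, 0 to 2 for NCG, 0 to 4 for the interaction, 0 to 8 for H − N against L − N, and 0 to 4 for either group fed NCG against L − N, and was 0 throughout for H + N against L + N or against H − N. The highest numbers came without L − N replicate 1, where the shares of all genes called were also higher than with all libraries. These shares were 6.99% for HF against LF, 7.9% for NCG and 2.81% for the interaction. Against L − N they were 13.0% for H − N, 13% for L + N and 12% for H + N. With the replicate number as a block the number was 3 for H − N against L − N and 2 for either group fed NCG against L − N, in place of 4, 3 and 3, and the calls lost were those of APOE, NPC1 and FDPS. Of all genes 2.48% were then called for H − N, 7.15% for L + N and 4.76% for H + N. The numbers were not taken to pair the libraries, since the correlations of same-numbered libraries were no higher than those of others (median −0.0413 against 0.0298), although H − N replicate 3 and H + N replicate 3 both had high enzyme levels. RLE scaling and no filter kept each of these counts within 1.5 times. The cause of the other shifts was not tested. Counting error is largest for STARD4, whose lowest count was 39 reads.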
